A study of Homo sapiens with 2 samples.

Results

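Aldo-keto reductases and the enzymes, carrier and receptor of retinoid metabolism were examined as a set of 10 human genes: AKR1B10, AKR1B1, AKR1C1, AKR1C2, AKR1C3, DHRS3, ALDH1A1, ALDH1A3, CRABP2 and RARB. They were taken by gene symbol from the probe annotation, out of 12445 named genes on the array, and 9 of the 10 had a probe. AKR1B1 matched no probe of the annotation used here. Each of the 9 rested on 1 probe. The set was chosen by gene family with the log2 ratios of both arrays known, AKR1B10 and DHRS3 being among the lowest genes of the transfection array. All values of the members are therefore a description.

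Cells of ACC-MESO1 depleted of CD26 were set against control ACC-MESO1 cells on 1 array, and MSTO-211H cells carrying CD26 in the vector pLNCX2 were set against control MSTO-211H cells on the other. Both are established human mesothelioma lines. The labels name the depleting agent as an siRNA in one field and an shRNA in another, and say neither what the control cells received nor whether transfected cells were a clone or a pool. On both arrays the manipulated cells were labelled with Cy3 and the control cells with Cy5, with no dye swap. Each value below is a deposited log2 ratio, with the manipulated cells on top and the median of each array at 0; the levels of the 2 cell populations behind a ratio were not used here. With 1 array a comparison (n = 1), there is no replicate error, no test and no p-value. The nearest measure of spread is that between different probes of a gene, with a pooled SD of 0.42 for the depletion array (566 genes with several probes) and 0.45 for the transfection array (471 such genes). Centring each array on its ribosomal protein genes in place of all probes moved every value up, by 0.35 in depleted and 0.25 in transfected cells, and where this puts a list median on the other side of 0, that median is given too. DPP4, the gene of CD26, had a log2 ratio of -3.92 in the depleted cells and 5.51 in the transfected cells, the directions that the labels give.

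Retinoids are vitamin A and its derivatives. Retinol is oxidised to retinal, retinal is oxidised to retinoic acid by aldehyde dehydrogenases of the ALDH1A family, and retinoic acid activates nuclear receptors that bind DNA as partners of RXR. Reductases such as DHRS3 and AKR1B10 run the opposite way and turn retinal back into retinol. The AKR1C enzymes reduce ketones of steroids and prostaglandins with NADPH, and in human cells AKR1B10 and the AKR1C genes are known targets of the oxidative stress factor NRF2.

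In CD26-transfected MSTO-211H cells, all 8 members with a value had a log2 ratio below 0, from -2.44 for AKR1B10 to -0.05 for CRABP2, with a median of -0.90. CRABP2 alone changed sign with ribosomal centring, to 0.20. AKR1B10, DHRS3 and AKR1C2 were at least 2-fold lower, which was 3 of the 8, and 128 of all 9359 named genes with a value (1.37%) were lower by as much. No member was at least 2-fold higher, against 383 genes (4.09%). Below 0 were 49.3% of all named genes. At or below -0.5 were 7 of the 8 members and 9.4% of named genes, and at or below -1.5 were 2 of the 8 and 0.235%. In CD26-depleted ACC-MESO1 cells only DHRS3 and CRABP2 had a value, and neither reached 2-fold in either direction. Both were below 0, as were 48.7% of named genes there, where 1.56% of 10347 genes were at least 2-fold lower and 3.31% at least 2-fold higher. The other 7 members with a probe were without a value on that array, while 83.1% of all named genes had one there. The sources used here do not state by which rule a probe was left without a value. The set therefore describes MSTO-211H cells almost alone, and whether the other members differed on CD26 depletion was not measured.

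**Figure D1:**
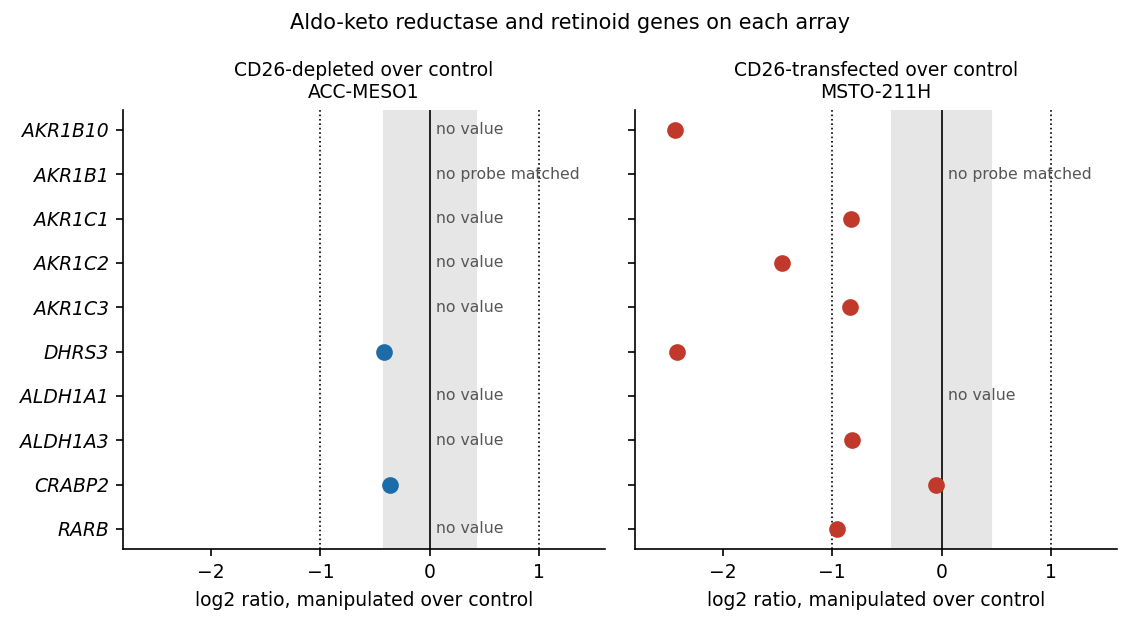
Log2 ratio (x axis) of each of the 10 genes (rows) on the depletion array (left, blue) and the transfection array (right, red), 1 point per gene and array. The grey band is 1 pooled SD between probes of a gene on either side of 0 and dotted lines mark 2-fold; AKR1B10 (-2.44), DHRS3 (-2.42) and AKR1C2 (-1.46) lie left of the dotted line in the right panel, and 2 genes have a point in the left panel.

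AKR1B10, a reductase of retinal and of other aldehydes, had the lowest value of the set. Its log2 ratio in transfected cells was -2.44, which is 5.41-fold lower than in control MSTO-211H cells and 5.38 times the pooled SD between probes. It ranked 3 from the lowest among the 9359 named genes of that array. It had no value in ACC-MESO1 cells. Its close relative AKR1B1, the aldose reductase that turns glucose into sorbitol, could not be set beside it. The other genes of the polyol pathway and of aldehyde detoxification did not share its size: 0 of 7 measured were past 2-fold on either array, the list median was -0.14 in depleted cells (0.22 with ribosomal centring) and 0.29 in transfected cells, and the medians over all named genes were 0.012 and 0.0072. In transfected cells they ran from PARK7 (-0.14) to the fructose kinase gene KHK (0.77). With ribosomal centring KHK alone was at least 2-fold higher there, as were 7.32% of all named genes. In depleted cells they ran from HAGH, a glyoxalase (-0.81), to PARK7 (0.13).

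AKR1C1, AKR1C2 and AKR1C3 lie side by side on chromosome 10. AKR1C1 mainly inactivates progesterone, AKR1C2 reduces dihydrotestosterone, and AKR1C3 makes testosterone and reduces prostaglandins. In transfected MSTO-211H cells the log2 ratio of AKR1C2 was -1.46 (2.76-fold lower), that of AKR1C3 was -0.84 (1.79-fold lower) and that of AKR1C1 was -0.83 (1.77-fold lower). The 3 genes averaged -1.04 ± 0.36 (SD over the 3 genes, not over replicates). AKR1C1 and AKR1C3 differed by less than the SD between probes, and AKR1C2 lay 0.64 below AKR1C1, 1.40 times that SD. That SD is of single probes about the mean of their gene, and a difference between probes of different genes varies more widely. AKR1C2 is therefore not set apart from its paralogs by this measure. The ranks from the lowest were 27 for AKR1C2, 234 for AKR1C3 and 246 for AKR1C1. None of the 3 had a value in depleted ACC-MESO1 cells. These paralogs are so alike that a probe of any of them may bind transcripts of the others, so the 3 values may share signal and cannot be counted as independent. Probe sequences were not used here.

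How close these genes are also shows in the bases just before their starts, which are printed here for that comparison. The windows are the 250 bases before the RefSeq start (GRCh38.p14), written 5′ to 3′ on the gene's strand: chr10:4963165-4963414, plus strand for AKR1C1, chr10:5003858-5004107, minus strand for AKR1C2 and chr10:5048531-5048780, plus strand for the leftmost start of AKR1C3 among those taken. Capitals mark ATTGG, the CCAAT box read on the other strand. Only AKR1C windows that held this box on either strand were taken.
AKR1C1: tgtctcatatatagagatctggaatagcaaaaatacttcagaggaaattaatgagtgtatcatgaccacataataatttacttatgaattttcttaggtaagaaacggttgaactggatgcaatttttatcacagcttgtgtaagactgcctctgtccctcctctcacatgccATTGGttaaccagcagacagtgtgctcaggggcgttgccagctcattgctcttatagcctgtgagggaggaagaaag
AKR1C2: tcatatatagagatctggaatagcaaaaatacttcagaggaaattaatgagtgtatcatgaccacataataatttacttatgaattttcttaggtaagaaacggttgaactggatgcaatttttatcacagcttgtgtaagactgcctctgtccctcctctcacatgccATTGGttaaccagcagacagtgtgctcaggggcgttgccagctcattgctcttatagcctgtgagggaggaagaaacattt
AKR1C3: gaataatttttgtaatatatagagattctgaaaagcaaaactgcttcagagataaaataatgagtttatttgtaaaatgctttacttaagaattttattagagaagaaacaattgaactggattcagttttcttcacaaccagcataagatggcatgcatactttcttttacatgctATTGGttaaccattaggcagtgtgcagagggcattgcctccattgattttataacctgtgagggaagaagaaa
The AKR1C1 and AKR1C2 windows were identical at 245 of 246 aligned bases (99.6%). AKR1C3 matched AKR1C1 at 185 of 241 aligned bases (76.8%) and AKR1C2 at 183 of 237 (77.2%), and its other start with the CCAAT box matched them at 79.1% and 79.5%. In each AKR1C window shown, CCAAT was on the strand opposite to the gene. These windows were taken because they held it, so their share cannot be set against other windows. Of the 16 windows of all members, 7 held it on either strand, and so did 32.0% of all 35116 promoter windows of the same length. The core of the NRF2 site, TGACNNNGC on either strand, was in no AKR1C window and in 10.9% of all windows. Only these 250 bases were searched, so a site farther from the start would not be seen. Whether these genes have an NRF2 site was therefore not tested.

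AKR1E2 and AKR1C4, the outer genes of the cluster, had log2 ratios of -0.51 and -0.46 in transfected cells, so that all 5 measured cluster genes were below 0 with AKR1C2 the lowest. Taking the 5 nearest named genes on each side, 9 had a value, their median was -0.11, and none was at least 2-fold lower. They ran from PITRM1 (-0.63) to NET1 (1.18), and PITRM1 and IDI1 (-0.51) were as low as AKR1E2 and AKR1C4. In depleted ACC-MESO1 cells AKR1E2 was at -0.46 and AKR1C4 at -0.37, and the flanking median was -0.06 over 10 genes, among which NET1 (-1.29) and IDI1 (-1.06) were at least 2-fold lower, though not with ribosomal centring (-0.94 and -0.71). Around AKR1B10 on chromosome 7, 9 flanking genes had a median of -0.23 in transfected cells and a lowest value of -0.73 (PODXL). Around RARB on chromosome 3 the 10 flanking genes lay between -0.21 and 0.65. Around DHRS3 on chromosome 1 the flanking median was -0.37 over 8 measured genes. AGMAT (-1.23) and NPPB (-1.18) among them were at least 2-fold lower as deposited and not with ribosomal centring (-0.98 and -0.93).

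**Figure D2:**
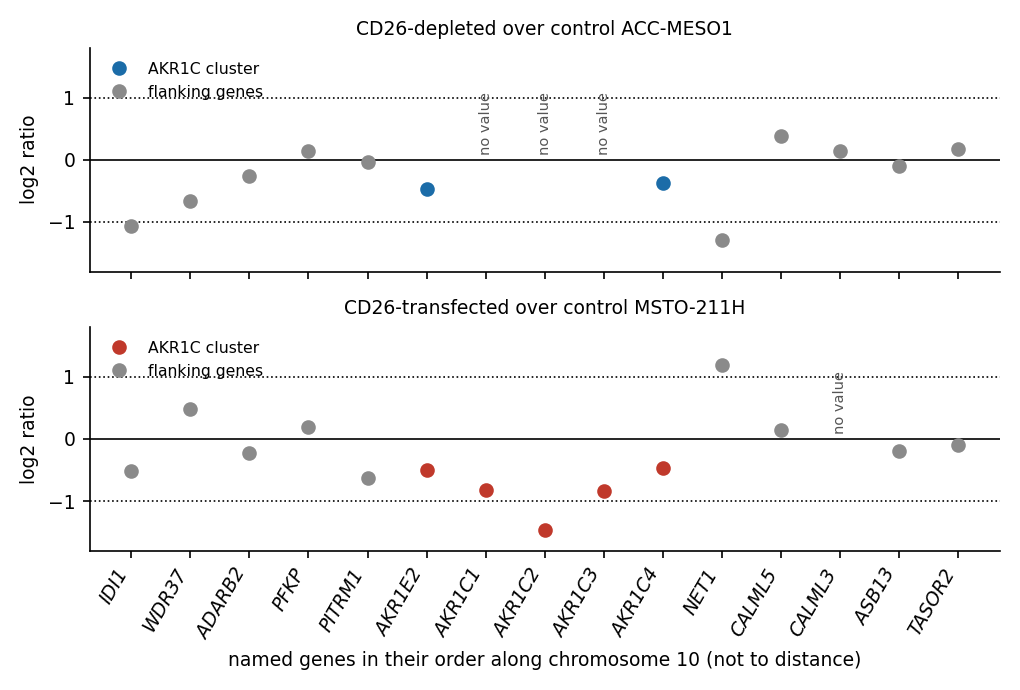
Log2 ratio (y axis) of the named genes around the AKR1C cluster, in their order along chromosome 10 (x axis, not to distance), on the depletion array (top) and the transfection array (bottom). Coloured points are the cluster from AKR1E2 to AKR1C4 and grey points the 5 nearest named genes on each side; in the lower panel all 5 cluster genes lie below 0, with AKR1C2 at -1.46.

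DHRS3, which reduces retinal to retinol and is itself induced by retinoic acid, was the other strongly lower gene of the set. Its log2 ratio in transfected MSTO-211H cells was -2.42 (5.35-fold lower), and it ranked 4 from the lowest. In depleted ACC-MESO1 cells it was -0.42, about the size of the pooled SD between probes, and 12.7% of named genes were as low or lower. The sign was thus the same in both lines, and without a dye swap a gene-specific dye effect cannot be told apart from a shared direction. The named genes with the most similar pair of values, by Euclidean distance over the 2 arrays, were the homeobox gene HOXA7 (-0.83 in depleted and -2.34 in transfected cells, distance 0.42), the chromatin remodeller gene SMARCA1 (-0.21 and -2.05, distance 0.42) and the basement membrane gene NID2 (-0.26 and -2.02, distance 0.44). The same measure could not be given for AKR1B10, which had 1 value.

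Other enzymes that interconvert retinol and retinal did not follow DHRS3 as a list. In transfected cells 6 of 9 measured were above 0, and the median was 0.22, or 0.26 over the 8 without DHRS3. RDH5, a retinol dehydrogenase known from the eye, was the other gene at least 2-fold lower, at -1.27, and RDH10, known in the mouse embryo for making retinal, was at -0.79. DHRS7 was the highest at 0.46. In depleted cells 6 of 12 were above 0, the median was -0.15 (0.20 with ribosomal centring), and none was past 2-fold, from ADH1B (-0.81) to ADH7 (0.56), both alcohol dehydrogenases. RDH5 and RDH10 were at 0.20 and 0.33 there, opposite in sign to their values in transfected cells.

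ALDH1A3, which oxidises retinal to retinoic acid, had a log2 ratio of -0.82 in transfected MSTO-211H cells (1.76-fold lower, rank 263 from the lowest) and no value in depleted cells. ALDH1A1, which carries out the same step, had a probe but no value on either array, and the same held for ALDH1A2. Among all measured aldehyde dehydrogenases none was past 2-fold on either array. Their median was -0.09 over 12 genes in depleted cells (0.26 with ribosomal centring), from ALDH9A1 (-0.76) to ALDH5A1 (0.51). It was -0.13 over 12 genes in transfected cells (0.12 with ribosomal centring), where ALDH1A3 was the lowest and ALDH1B1 (0.63) the highest. Of the enzymes that make or break down retinoic acid, CYP1B1, a cytochrome P450 that also acts on steroids, was at least 2-fold lower in depleted cells (-1.67, 3.18-fold) and had a log2 ratio of 0.93 in transfected cells. Within the list it was lowest among the genes measured in depleted cells and highest among those measured in transfected cells, where it was at least 2-fold higher with ribosomal centring. The retinoic acid hydroxylase CYP26A1 (-0.12) was the highest in depleted cells and had no value in transfected cells, and CYP26B1 was at -0.37 and 0.30. With 3 genes measured on each array, that list had medians of -0.37 and 0.30, or -1.02 and 0.62 among genes measured on both arrays, which leaves CYP1B1 and CYP26B1.

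CRABP2 delivers retinoic acid to its nuclear receptors. It was at -0.36 in depleted ACC-MESO1 cells and -0.05 in transfected MSTO-211H cells, both within the SD between probes. In its list of retinoid uptake, storage and binding genes, RBP3, a carrier of the retina, was the gene past 2-fold (1.12 in depleted cells, no value in transfected cells). The list median was 0.17 over 11 genes in depleted cells, with RLBP1 (-0.99) the lowest. It was 0.28 over 10 genes in transfected cells, from RBP2 (-0.64) to the plasma retinol carrier RBP4 (0.86), which was at least 2-fold higher with ribosomal centring.

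RARB encodes a retinoic acid receptor whose gene is a textbook target of retinoic acid itself. In transfected cells its log2 ratio was -0.96 (1.95-fold lower, rank 151 from the lowest), just short of 2-fold, while AKR1C2 was the member next inside it. It had no value in depleted cells. Its promoter is shown because it holds the repeated half-site through which retinoic acid receptors are known to act on this gene (chr3:25428013-25428262, plus strand, 250 bases before a RefSeq start, GRCh38.p14). Capitals mark the letters searched for, 2 copies of the 5 letters GTTCA with 6 bases between them. These are a shortened form, not the full half-sites, so the 6 bases are not the spacing of the full half-sites.
RARB: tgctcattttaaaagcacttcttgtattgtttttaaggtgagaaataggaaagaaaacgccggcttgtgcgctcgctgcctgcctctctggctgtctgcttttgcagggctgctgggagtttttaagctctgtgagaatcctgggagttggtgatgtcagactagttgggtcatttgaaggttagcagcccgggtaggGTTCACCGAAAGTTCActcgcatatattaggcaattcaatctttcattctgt
A pair of such shortened half-sites, each GGTCA or GTTCA, in the same direction and 6 bases apart was found on either strand in 52 of 35116 windows (0.148%). Among the 16 windows of the 9 members in the promoter table, it was in 1, that of RARB at 52 to 37 bases before the start. The windows of DHRS3 and CRABP2 did not hold these letters. The search covered 250 bases and 1 spacing, so a site elsewhere or of another form would not be seen. AKR1B10 was the member that is not in that table.

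The other receptors and cofactors lay within 2-fold on both arrays as deposited. With ribosomal centring 1 of them, RXRB, was at least 2-fold higher on each array, as were 8.24% of all named genes in depleted and 7.32% in transfected cells. In transfected cells 7 of 9 measured were below 0 with a median of -0.22 (0.030 with ribosomal centring), RARB the lowest, RARG at -0.57, RXRA at -0.56 and RXRB (0.84) the highest. In depleted cells 5 of 7 were above 0 with a median of 0.26, from RXRA (-0.66) to RXRB (0.96). RXRA and RXRB, both partners of the retinoic acid receptors, thus had opposite signs to each other and the same sign in both lines. Without a dye swap, a gene-specific dye effect cannot be told apart from a shared direction for these genes.

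Genes known to respond to retinoic acid were mixed. In transfected cells 12 of 16 measured were below 0 with a median of -0.26, or -0.21 over the 13 that are not members (0.041 with ribosomal centring), where 9 were below 0. DHRS3, the receptor kinase gene RET (-1.21) and the myeloid factor gene CEBPE (-1.05) were at least 2-fold lower, and none was at least 2-fold higher. In depleted cells 10 of 17 were below 0 with a median of -0.12 (0.23 with ribosomal centring). TGM2, tissue transglutaminase (2.63, 6.18-fold higher), and PLAAT4, also named RARRES3 (2.24, 4.73-fold higher), were at least 2-fold higher there, and the homeobox gene MEIS1 was at least 2-fold lower (-1.01). TGM2 had no value in transfected cells, and PLAAT4 was at 0.16. MEIS1 was the highest of the list in transfected cells (0.91). With ribosomal centring 1 gene of the list, DHRS3, was at least 2-fold lower in transfected cells and 0 in depleted cells. MEIS1 was then at least 2-fold higher in transfected cells. The genes of this list respond to other signals too.

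NRF2 regulators and targets were mostly below 0 on both arrays, and here too a dye effect cannot be told apart from a shared direction. In depleted cells 25 of 34 measured were below 0 with a median of -0.33, and PIR (-1.13) and the cystine transporter gene SLC7A11 (-1.005) were at least 2-fold lower. In transfected cells 19 of 30 were below 0 with a median of -0.21. The exception past 2-fold was MAFK, a small MAF partner of NRF2, at 1.43, or 2.69-fold higher. The quinone reductase gene NQO1 was at -0.62 in depleted and -0.46 in transfected cells, the heme oxygenase gene HMOX1 at -0.06 and -0.80, and the ferritin light chain gene FTL at -0.99 and -0.92, the last being the lowest of the list in transfected cells. The transporter gene ABCC3 was the highest in depleted cells (0.92), and NFE2L2, the gene of NRF2, was at -0.87 and -0.06. With ribosomal centring the medians of this list were 0.03 in depleted and 0.04 in transfected cells, none was at least 2-fold lower in either, and 3 genes in depleted and 2 in transfected cells were at least 2-fold higher. Of all named genes, 8.24% in depleted and 7.32% in transfected cells were at least 2-fold higher with that centring.

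The remaining aldo-keto reductases were within 2-fold except AKR1D1, a bile acid and steroid reductase, which was 2.12-fold higher in transfected cells (1.08) and had no value in depleted cells. AKR1D1 is one of the 403 genes with a value on the transfection array alone, of which 28.5% were at least 2-fold higher. Over the whole family the median was -0.46 in transfected cells with 7 of 11 below 0, and 0.0048 over the 7 that are not members. In depleted cells it was -0.33 over 7 genes (0.023 with ribosomal centring), from KCNAB3 (-0.48) to AKR7A3 (0.23). AKR1A1, AKR7A2 and AKR7A3, which reduce aldehydes in many tissues, lay between 0.0048 and 0.29 in transfected cells. Among enzymes of steroid and prostaglandin reduction and their partners, 1 of 19 was at least 2-fold higher in depleted cells, the steroid dehydrogenase gene HSD3B2 (1.96), with a median of 0.12 and HSD3B1 the lowest (-0.72). In transfected cells PTGES, a prostaglandin E synthase, had the lowest value (-2.63, 6.18-fold lower, from 1 of its 2 probes), AKR1C2 was the other gene at least 2-fold lower, AKR1D1 was the highest, and the median over 20 genes was -0.07 (0.18 with ribosomal centring).

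**Figure D3:**
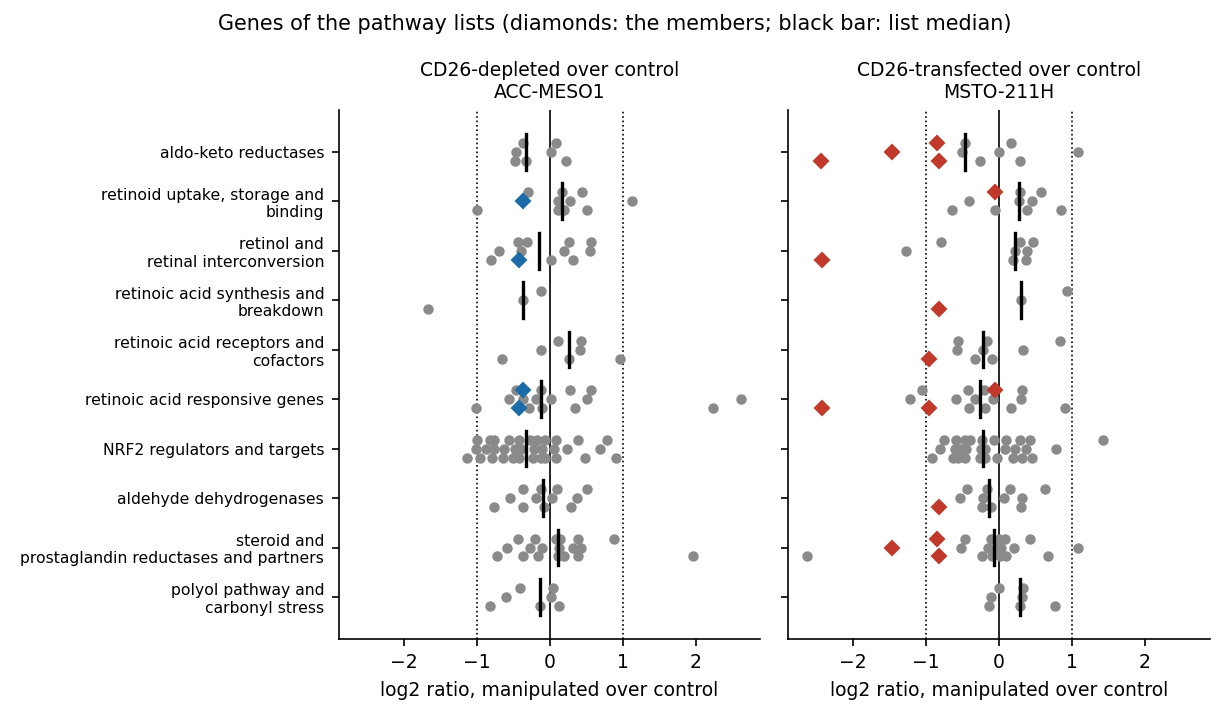
Log2 ratio (x axis) of each measured gene of 10 pathway lists (rows) on the depletion array (left) and the transfection array (right). Diamonds are the members, grey points the other genes of a list, black bars list medians and dotted lines 2-fold; on the transfection array AKR1B10 and DHRS3 lie farther left than every other gene of these lists but PTGES.

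The members with a value on the transfection array alone stood at the low end of a class that was mostly high. Of the 403 named genes measured there and not on the depletion array, 87 (21.6%) were below 0 and the median was 0.53, while 50.5% of the 8956 genes measured on both arrays were below 0. AKR1B10, AKR1C1, AKR1C2, AKR1C3, ALDH1A3 and RARB belong to the 403, and all 6 were below 0. The set was chosen with these values known, and the AKR1C values may share signal, so their place in the class is a description alone. Of the 403, 28 (6.95%) were at or below a log2 ratio of -0.5, and these 6 genes are among them. AKR1B10 and AKR1C2 are 2 of the 13 (3.23%) that were at least 2-fold lower, and 115 (28.5%) were at least 2-fold higher. Signal intensities were not used here, so a dim probe could not be told from a bright one, and the part of low signal in these values was not tested.

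**Figure D4:**
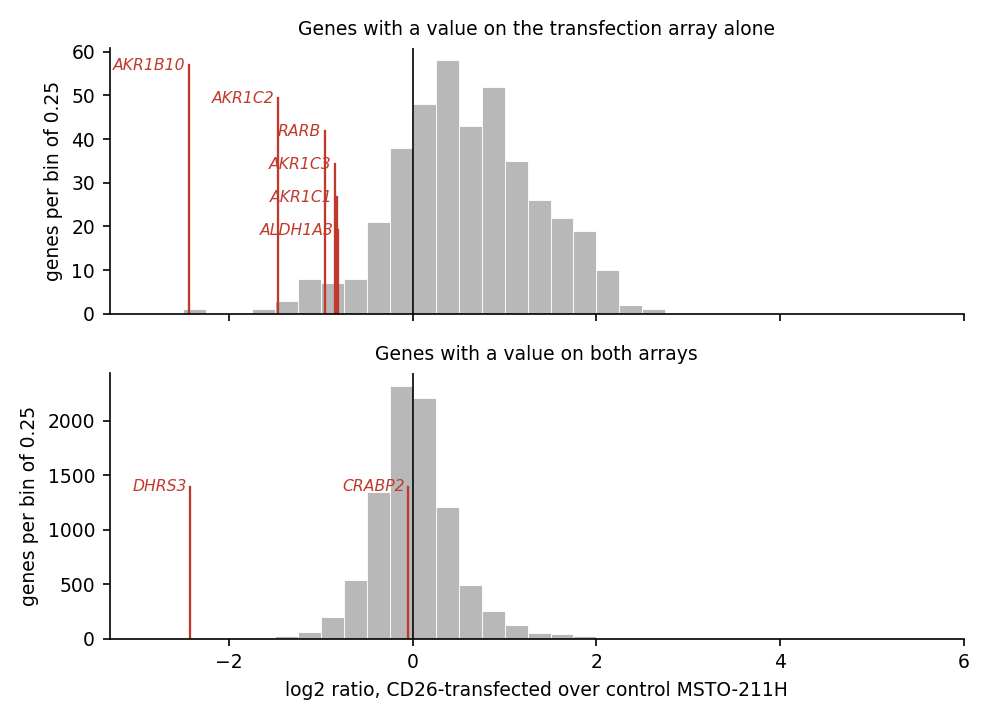
Number of named genes (y axis) in bins of 0.25 by log2 ratio on the transfection array (x axis), for the 403 genes with a value there alone (top) and the 8956 genes with a value on both arrays (bottom). Red lines mark the members at their log2 ratios, and line height has no meaning; all 6 in the top panel lie below 0, where 21.6% of that class lies. The members were chosen with these values known.

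Markers of mesothelial cells, the lineage of both lines, and of other cell types were looked at beside these values. In depleted cells the median was 0.15 over 16 mesothelial markers, led by ITLN1 (1.38) and CDH3 (1.35) with WT1 the lowest (-0.37), -0.02 over 8 liver and intestine markers from SERPINA1 (-0.92) to CDX2 (0.58), 0.29 over 4 leukocyte markers from CD3D (-0.07) to CD68 (0.47), and -0.07 over 9 fibroblast and endothelial markers from LUM (-0.89) to THY1 (0.60). In transfected cells the mesothelial median was 0.09 over 13 markers, with mesothelin, MSLN (-1.31), and KRT18 (-1.16) at least 2-fold lower (with ribosomal centring 1 of them, MSLN) and UPK3B the highest (0.66). Liver and intestine markers had a median of 0.01 over 6, from FABP1 (-0.35) to CDH17 (1.83), leukocyte markers -0.30 over 5, from CD68 (-0.89) to CD3E (1.88), and fibroblast and endothelial markers -0.40 over 8, from FBLN1 (-0.71) to THY1 (0.75). CDH17 and CD3E had no value in depleted cells. They belong to the 403 genes measured on the transfection array alone, of which 28.5% were at least 2-fold higher. With ribosomal centring the liver and intestine median was 0.33 and the fibroblast and endothelial median 0.29 in depleted cells. The part of any of these in the members' values was not tested.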

How the data were processed

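Total RNA from ACC-MESO1 and MSTO-211H cells was measured on 2 two-colour arrays. Per the labels, the authors deposited normalized log2 ratios, manipulated over control cells, after TRIZOL extraction, amino allyl amplification and dye coupling. The sources used here do not state the background correction, normalization method, scanner or rule for empty values.

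The members and the 14 gene lists (228 distinct genes, 197 named on the array, 24 in more than 1 list) were chosen with earlier results of these data known. Of 24267 probes, 13395 had 1 gene symbol, 0 had several and 10872 had none. Symbols came from the platform annotation and were updated through RefSeq (GRCh38.p14): 10076 were current, 2285 were updated and 113 with several candidates were kept. Probes of a gene were averaged. A gene was called past 2-fold at an absolute log2 ratio of at least 1. No test was made, and precision is limited by the number of arrays. All members were named. So were list genes past 2-fold or highest or lowest in a list, DPP4, and the 3 genes nearest to DHRS3. List genes named beyond this rule, among them NQO1, HMOX1, NFE2L2, RDH10, RARG, CYP26B1 and the other genes given for their role, and the flanking genes, were chosen after their values were seen. Flanking genes are the 5 nearest named genes with a value on each side. Promoter windows come from RefSeq (GRCh38.p14), and 9 of 10 members matched. Windows were aligned globally with free end gaps in Biopython 1.88, and identity is over aligned bases without gaps. The summaries used pandas 2.3.3 and were tested on simulated data. Alternatives were another centring, the probe of largest absolute log2 ratio, a common spread, other thresholds, genes on both arrays, and symbols as listed. Ribosomal centring of the flanking genes was added after the data were seen.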

Additional observations from a re-analysis of the deposited data

How the results depend on the processing

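The 10 member values moved by less than the SD between probes under all 4 alternatives run on them. The probe of largest absolute log2 ratio could not move them, because each rested on 1 probe. Centring on ribosomal protein genes moved every gene up by the same amount, 0.35 in depleted and 0.25 in transfected cells. Both amounts are below that SD, so no member could move by more than it. AKR1B10 was then at -2.19, DHRS3 at -2.17, AKR1C2 at -1.21, RARB at -0.71, AKR1C3 at -0.59, AKR1C1 at -0.58 and ALDH1A3 at -0.57, while CRABP2 lay above 0 in transfected cells (0.20). DHRS3 and CRABP2 in depleted cells were at -0.07 and -0.01. All genes at least 2-fold lower or higher in transfected cells then numbered 53 and 685, against 128 and 383 as deposited, and in depleted cells 42 and 853, against 161 and 342. With autosomes centred separately on their medians, AKR1B10 was at -2.26. With thresholds of 0.5 and 1.5, the members lower in transfected cells numbered 7 and 2. Of the 28 list medians, 12 changed side of 0 with ribosomal centring, 1 with autosome centring and 2 among genes on both arrays. The last 3 were medians of marker lists close to 0, those of fibroblast and endothelial markers in depleted cells (0.010 on both arrays) and of liver and intestine markers in transfected cells (-0.14 with autosome centring, -0.12 on both arrays). With that restriction no aldo-keto reductase was past 2-fold on the transfection array, because AKR1B10, AKR1C2 and AKR1D1 have no value on the depletion array. Of the 56 counts of list genes past 2-fold, 15 moved with ribosomal centring and 10 among genes on both arrays. A move was a change to or from 0, or by more than 1.5 times. Autosome centring, a common spread and symbols as listed moved 1 count each. No paired analysis was possible because each comparison has 1 array. Cross-hybridisation among AKR1C paralogs and signal over background could not be assessed from ratios.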

Other observations

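Other short-chain dehydrogenase genes whose current or listed symbol begins with DHRS, a set chosen after values were seen, did not share the low value of DHRS3 in transfected MSTO-211H cells. The 7 measured there lay between -0.52 and 0.46. In depleted ACC-MESO1 cells DHRS2, a mitochondrial and nuclear reductase of dicarbonyls, was at least 2-fold lower (-1.60) and BDH2, listed as DHRS6, was at -0.96. In transfected cells these genes had log2 ratios of 0.05 and 0.10. Both probes of DHRS4, a retinal reductase, were below 0 in depleted cells (-0.49 and -0.37) and above 0 in transfected cells (0.46 and 0.31).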
